A study of Bos taurus with 18 samples.

Results

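Bovine blastocysts whose cavity had formed on day 7 after fertilization were compared with blastocysts of the same kind kept in culture for 1 more day. The comparison takes 6 of the 18 arrays of the series, chosen by title alone: 3 arrays titled day7 and 3 titled day7+1. The embryos are labelled as produced in vitro, and the series' design text describes bovine zygotes cultured in small batches in drops under low oxygen and grouped by the day on which the blastocoel appeared. The day7 group was collected at day 7, when the cavity had formed, and the day7+1 group was collected 1 day later, at day 8. The reference groups, of 3 arrays each, are day6 and day6+1, where the cavity formed on day 6 and the embryos were collected at once or 1 day later, day6+2, which had 2 extra days, and day8, whose cavity formed on day 8 and whose embryos have the same age as day7+1. No genotype or treatment other than time was labelled. The notes on day6, day6+2 and day8 name abattoir ovaries, semen of a single bull and co-culture with VERO cells, a monkey kidney line, while those on day6+1, day7 and day7+1 are silent on these. The labels of day7 and day7+1 call the samples biological replicates but do not give the number of embryos per array or say that the replicates came from separate cultures, and the p-values therefore reflect only how much these samples scatter, which may be technical. RNA was amplified in 2 rounds before Cy3 labelling, and each level is a log2 fluorescence intensity of a single-colour array.

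A bovine blastocyst consists of an outer epithelium, the trophectoderm, and an inner cell mass that separates into epiblast and hypoblast. The trophectoderm pumps fluid into the cavity, and in cattle it secretes interferon tau (IFNT), the signal by which the embryo makes itself known to the mother, before it attaches to the uterus. In culture the days after cavity formation are those in which the blastocyst expands and hatches, while its trophectoderm takes up secretory and steroid-producing functions.

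The arrays carried 43794 probes, of which 21790 have a gene symbol in the platform annotation, and 34265 features were tested (14543 genes, each by its brightest probe, and 19722 probes that are unnamed here). Median foreground intensities ran from 157 to 302 over the 18 arrays against backgrounds of 14 to 21. Between 72.0% and 81.1% of probes were above the negative controls, and precision is limited by having 3 arrays a group. Both ends of these ranges were day7 arrays. The first had the lowest foreground and background and the highest share of probes above the controls, and the third had the reverse. The first day7 array stood apart from the other 2 along the first principal component, the main axis of variation over the 18 arrays. A set of 373 features (174 genes and 199 unnamed probes) was chosen for a correlation over 0.8 with that axis. It averaged 11.60 on the first day7 array, against 8.92 and 9.69 on the other day7 arrays. On the 3 day7+1 arrays it averaged 8.47 to 9.11. The axis was drawn from these same arrays, so the levels of the set describe it and are no added support. The same set was high on all 3 day8 arrays (10.34 to 10.84) and on the first day6+1 array (10.88). Its part in the results was not tested, and results that rest on it are given with and without that array. No slide held both day7 and day7+1 arrays, so slide and group can be told apart only through the other groups that share those slides. The labelled tissue was checked against defining markers: all 8 trophectoderm markers and all 4 inner cell mass markers were above background on all 6 arrays, as were 3 of 4 hypoblast markers. Of the markers of other cells that passed the filter on dim probes, 2 of 2 for cumulus and granulosa, 2 of 4 for fibroblasts, 2 of 3 for kidney epithelium and 2 of 4 for the oocyte were above background on all 6 arrays, from 6, 5, 5 and 5 listed.

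Few features changed past the threshold over the extra day after a day 7 cavity. The scavenger receptor glycoprotein DMBT1 was the only named gene to pass, and it fell. The 5 other features that passed, all unnamed probes, rose by 1.18 to 1.86 on the log2 scale. In all, 6 of 34265 features (0.0175%) passed an adjusted p of 0.05 in limma with Benjamini-Hochberg adjustment, 5 of them higher (0.0146%). At an unadjusted p under 0.05 there were 2451 features, or 7.15%, of which 1275 (3.72%) were higher and 1176 (3.43%) lower. The median standard error of a difference was 0.22 and the standard deviation of all differences was 0.30, both log2. Over the extra day after day 6, which has the same number of arrays and the same median standard error, 429 features (1.25%) passed and the standard deviation of the differences was 0.34. The count is sensitive to the fit: it was 0 with slide as a fixed block, 0 when only the 6 arrays were fitted, and 10 when the first day7 array and the first day6+1 array were left out.

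**Figure D1:**
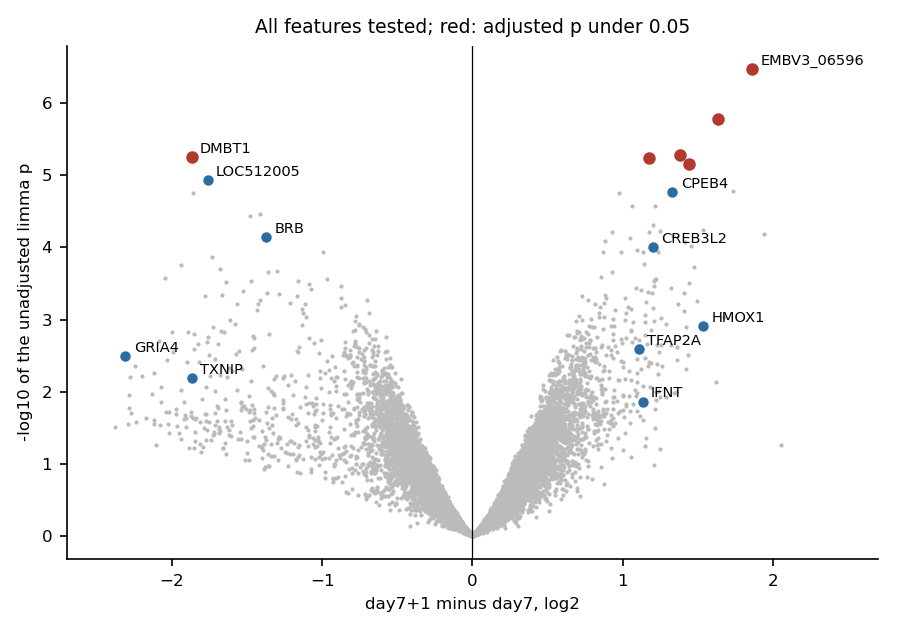
Every tested feature is a point, with the difference of day7+1 minus day7 (log2) on the horizontal axis and −log10 of the unadjusted limma p on the vertical axis. The 6 red points passed the adjusted threshold, and blue points are named genes that did not. The lower left holds a band of features with large falls and weak p-values, among them GRIA4.

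DMBT1, a secreted mucosal protein with scavenger receptor domains, measured 11.89, 10.52 and 11.38 on the day7 arrays and 9.35, 9.83 and 9.0 on the day7+1 arrays. Each day7+1 array lay below each day7 array. The difference was −1.87 ± 0.31 (SE, n = 3 against 3), a level 3.65-fold lower, with a limma adjusted p of 0.0387. Its mean was 9.63 in day6, 10.13 in day6+1, 9.55 in day6+2 and 9.90 in day8, so the day7 embryos had the highest level of the 6 groups and the day7+1 embryos the lowest, next to day6+2. DMBT1 was called for a fall from day7, which favours such ranks, so they are no added support. Without the first day7 array the difference was −1.55 and the limma adjusted p 0.125. The gene passed the threshold in 8 of 17 alternative settings, with adjusted p from 0.0129 to 0.393, and was lower in day7+1 in all of them.

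The probe with the smallest p, EMBV3_06596, measured 8.73, 7.91 and 8.42 on day7 and 10.46, 10.42 and 9.75 on day7+1. The arrays of the groups were separated by about 1 log2 unit. The rise was 1.86 ± 0.25 (SE, n = 3 against 3, limma adjusted p = 0.0114), or 3.63-fold, and 2.05 without the first day7 array. The other risen probes were EMBV3_03275 (1.64 ± 0.25, adjusted p = 0.0282), EMBV3_34651 (1.44 ± 0.24, adjusted p = 0.0391), EMBV3_24946 (1.38 ± 0.23, adjusted p = 0.0387) and EMBV3_18149 (1.18 ± 0.20, adjusted p = 0.0387). None of the 5 overlapped between groups, and none belonged to the set that was high on the first day7 array. Each of the 5 had its lowest mean of the 6 groups in day7, below day6 as well. They were called for a rise from day7, which favours a low mean there, so that rank is no added support. For EMBV3_06596 the means were 8.35 in day7, 9.15 in day6 and 9.58 in day8. EMBV3_18149 had measured 13.01, 12.80 and 12.67 on day7 and 14.16, 14.12 and 13.72 on day7+1. It was also the only feature called in both extra days, with a rise of 0.84 (adjusted p = 0.0328) from day6 to day6+1.

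**Figure D2:**
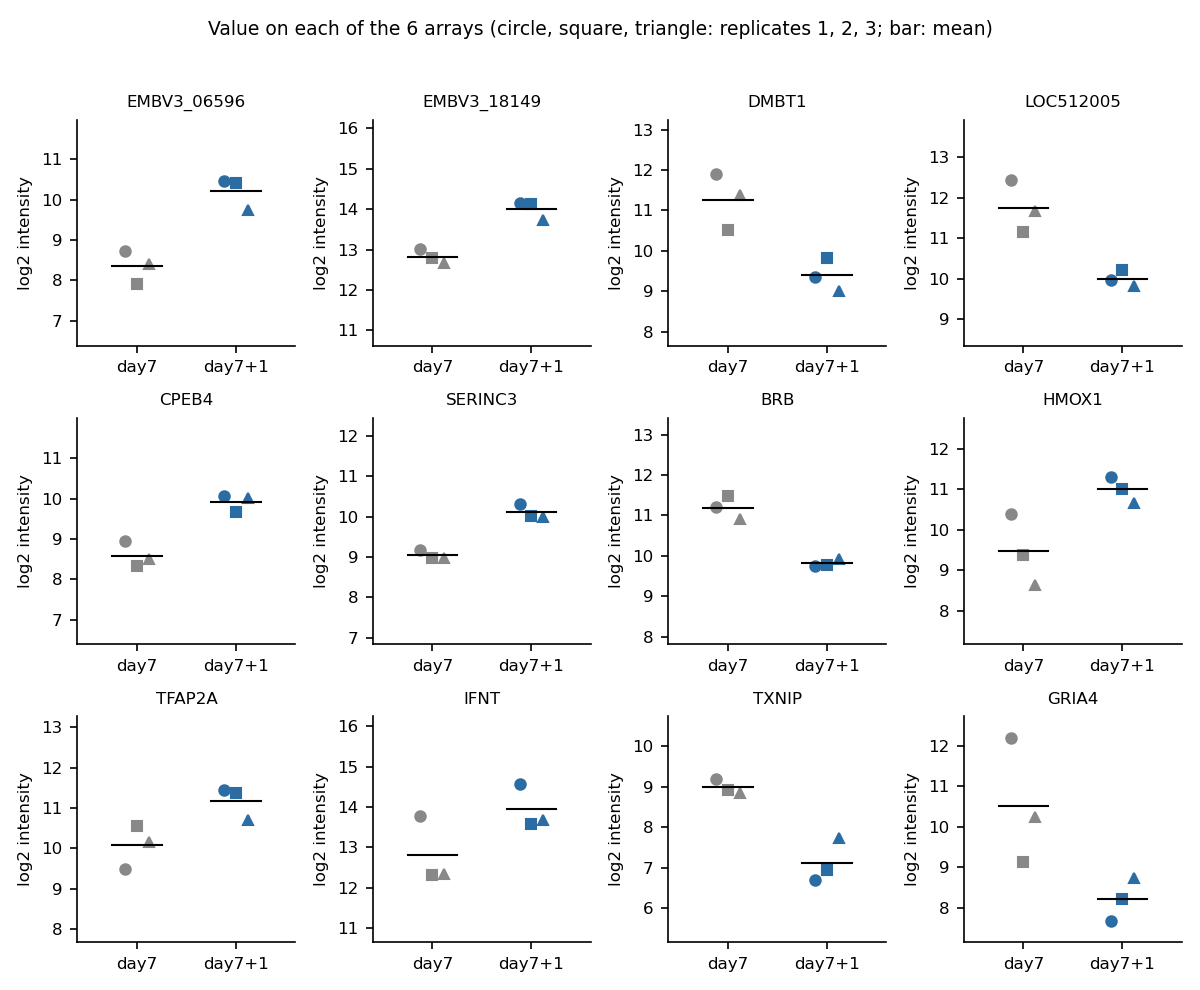
Log2 intensity of 12 features on each of the 6 arrays, with grey symbols for day7, blue symbols for day7+1, shapes for the replicates and a bar at each group mean; every panel spans the same range. DMBT1 and the unnamed probes separate the groups, IFNT overlaps between them, and GRIA4 is highest on the first day7 array.

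Just outside the threshold stood LOC512005, of no annotated role in the files, and CPEB4, which binds cytoplasmic polyadenylation elements and regulates translation of stored mRNAs. LOC512005 was 12.44, 11.16 and 11.68 on day7 and 9.96, 10.20 and 9.83 on day7+1, a difference of −1.76 ± 0.31 with adjusted p = 0.0547. CPEB4 was 8.94, 8.33 and 8.50 on day7 and 10.07, 9.67 and 10.02 on day7+1, a difference of 1.33 ± 0.24 with the same adjusted p. Both were separated between groups. LOC512005 had its highest mean in day7, as DMBT1 did (10.20 in day6, 10.71 in day6+1, 10.05 in day6+2, 10.47 in day8). CPEB4 had its lowest mean in day7 (8.59, against 9.39 to 10.03 in the other 5 groups), but its 2 other probes differed by only 0.35 and 0.37. LOC512005 and CPEB4 were chosen by p in this comparison, which favours extreme day7 means, so these ranks are no added support.

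Of the higher genes with the next smallest p-values, SERINC3, a multipass membrane protein, was 9.17, 8.98 and 8.98 on day7 and 10.30, 10.02 and 9.99 on day7+1. The spread within each group was a fraction of the gap, which was 1.06 ± 0.20 (limma adjusted p = 0.0706), but its other probe differed by only 0.13. CNFN, or cornifelin, a component of cornified epithelial envelopes, differed by 1.22 ± 0.23 (adjusted p = 0.0706). The actin nucleation promoter WASL differed by 1.21 ± 0.28, the heparan sulfate proteoglycan SDC3 by 0.77 ± 0.19 and the LIM homeobox factor LHX2 by 1.16 ± 0.29, with adjusted p from 0.201 to 0.249. The mitochondrial acyl-CoA dehydrogenase ACADSB was 9.89 to 10.18 on day7 and 10.88 to 11.13 on day7+1 (1.05 ± 0.21, adjusted p = 0.106). SPG20, whose product spartin sits on lipid droplets and endosomes, was 9.09 to 9.84 and then 10.43 to 10.54 (1.13 ± 0.24, adjusted p = 0.116, and 0.75 with slide as a fixed block). Without the second day7 array the difference of WASL was 0.80. The 10 higher genes with the smallest p all separated the groups, as 5.8% of all features did in that direction. They were chosen by that p, so their separation is no added support.

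Among the lower genes, BRB, the bovine brain-type ribonuclease, was 11.20, 11.47 and 10.91 on day7 and 9.76, 9.77 and 9.93 on day7+1. The groups were separated, and the difference was −1.37 ± 0.28 (limma adjusted p = 0.106). The phosphoinositide phosphatase INPP4B was 11.30 to 11.97 and then 10.32 to 10.45 (−1.36 ± 0.31, adjusted p = 0.180, and −0.72 with slide as a fixed block). PWWP2A, a chromatin protein that binds H2A.Z nucleosomes, was 13.78 to 14.31 and then 12.60 to 13.53 (−0.99 ± 0.21, adjusted p = 0.116). The Golgi proteins DYM (−0.97 ± 0.22) and TMEM87A (−1.16 ± 0.27), the linker histone HIST1H1D (−1.08 ± 0.25), the tRNA methyltransferase METTL1 (−0.87 ± 0.20) and the zinc finger protein ZKSCAN5 (−1.07 ± 0.25) followed, with adjusted p from 0.201 to 0.225. All of these separated the groups, as 4.82% of all features did in the lower direction. They too were chosen by the smallest p, so their separation is no added support. The other probes of DYM, TMEM87A and ZKSCAN5 differed by −0.04 to 0.40, so those 3 differences rest on the brightest probe. Apart from BRB, each of these lower genes had its highest mean of the 6 groups in day7, as DMBT1 did. Choice by a fall from day7 favours a high day7 mean, so that rank is no added support either.

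The largest falls by size were not those with the smallest p. The largest falls and rises were chosen among genes whose arrays separated the groups, so separation was a condition there. GRIA4, a glutamate receptor subunit, was 12.20, 9.13 and 10.24 on day7 and 7.68, 8.22 and 8.73 on day7+1, a difference of −2.31 ± 0.69 with adjusted p = 0.405. FAHD2A (−2.28 ± 0.75) and the potassium channel subunit KCNE1L (−2.09 ± 0.59) had adjusted p of 0.481 and 0.380. All 3 belong to the set that was high on the first day7 array, and without it the differences were −1.47, −1.24 and −1.54. With slide as a fixed block those of FAHD2A and KCNE1L were −0.89 and −0.85, and the other probe of FAHD2A differed by −0.18. TXNIP, an arrestin-family inhibitor of thioredoxin and glucose uptake, was 9.21, 8.91 and 8.86 on day7 and 6.69, 6.94 and 7.74 on day7+1, where it was above background on 1 of 3 arrays. Its difference of −1.87 ± 0.62 had an adjusted p of 0.481 and became −0.38 with slide as a fixed block, and its 2 other probes differed by −0.14 and 0.05.

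Of the largest rises, the nuclear envelope protein SYNE2 was 10.69 to 11.43 on day7 and 11.55 to 13.49 on day7+1 (1.67 ± 0.43, limma adjusted p = 0.297), and its 2 other probes were higher by 0.59 and 1.22, while with slide as a fixed block it differed by 0.86. HMOX1, the heme-degrading enzyme heme oxygenase 1, was 10.40, 9.37 and 8.63 on day7 and 11.31, 11.02 and 10.66 on day7+1. The groups were separated, narrowly, since the first day7 array came close to the lowest day7+1 array. The difference was 1.53 ± 0.41 (adjusted p = 0.334), and 2.00 without the first day7 array. LOC786942 (1.62 ± 0.55) and LOC783362 (1.42 ± 0.45) were high on the first and the third day7+1 array and near the day7 level on the second. With slide as a fixed block LOC786942 differed by 2.75.

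The features that had changed over the extra day after a day 6 cavity gave a clearer picture of the day after a day 7 cavity. The day6 and day6+1 arrays share no sample with day7 and day7+1. From day6 to day6+1, 297 features rose and 132 fell past the threshold. Of the 297, 249 (83.8%) were also higher in day7+1 than in day7, against 50.7% of all features tested, and their median difference was 0.34, compared with 1.29 in the comparison that chose them. Of the 132, 106 (80.3%) were lower, with a median of −0.34 against −1.13, beside 16885 of all 34265 features that were lower. An unadjusted p under 0.05 in the same direction was reached by 93 of the risen features (31.3%) and by 31 of the fallen features (23.5%), against 3.72% higher and 3.43% lower over all features. In the opposite direction it was reached by 3 and 2. The shared estimate of spread favours features with little scatter on the day7 and day7+1 arrays, which can raise these shares. When the day6 and day6+1 arrays were fitted alone, 419 features were called. Of them, 342 (81.6%) differed in the same direction after day 7, with a median of 0.38 in that direction. Of the 429, the unnamed probe EMBV3_18149 alone passed the adjusted threshold after day 7. No feature of the set that was high on the first day7 array was among the 429. That set averaged 10.88, 8.90 and 8.81 on the day6+1 arrays. So wide a spread made a call from day6 to day6+1 unlikely, so the absence is not a test.

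The shift was visible on single arrays. The 297 risen features averaged 10.65, 10.78 and 10.45 on the day7 arrays and 11.23, 10.92 and 10.86 on the day7+1 arrays. The 132 fallen features averaged 9.88, 9.72 and 9.93 on day7 and 9.27, 9.68 and 9.67 on day7+1. In both sets the groups did not overlap, although for the fallen set the second day7 array and the second day7+1 array were within 0.1 of each other. On the day6 arrays the risen features averaged 9.39 to 9.79 and on day6+1 10.86 to 11.27, so the day7 embryos, with no extra day, already lay between the day6 and day6+1 levels. The fallen features averaged 10.47 to 10.75 on day6 and 9.30 to 9.49 on day6+1, with the day7 arrays again between them.

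The features called over 2 extra days after day 6, 3.59% of those tested, gave similar values: 666 of 790 risen features (84.3%) were higher in day7+1, with a median of 0.32, and 342 of 439 fallen features (77.9%) were lower, with a median of −0.27. Of the 3 day6+1 arrays, 2 shared a slide with 2 day7 arrays. With slide as a fixed block, which draws the day 7 difference partly from day6+1 and day8 arrays, the same 297 and 132 features had medians of 0.19 and −0.10, with 66.3% and 56.8% in the same direction. When that block also chose the features, 29 were called and the median shift in their own direction was 0.03.

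**Figure D3:**
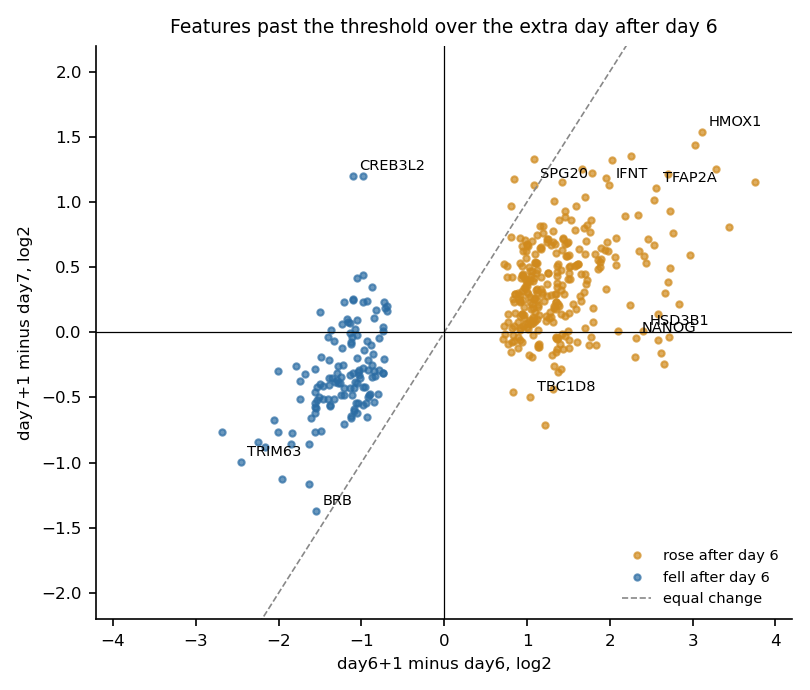
Each point is a feature past the threshold from day6 to day6+1 (429 in all, orange for risen and blue for fallen), with that difference on the horizontal axis and the difference of day7+1 minus day7 on the vertical axis, both log2. Most points lie on the same side of 0 in both comparisons and nearer to 0 than the dashed line of equal change; CREB3L2 lies on opposite sides, and NANOG and HSD3B1 lie at 0 on the vertical axis.

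Genes of this set differed in how much of the change recurred. HMOX1 had risen by 3.12 from day6 to day6+1 and was 1.53 higher in day7+1 than in day7. SPG20 and BRB differed by about as much in both: 1.09 and 1.13 for SPG20, −1.54 and −1.37 for BRB. NANOG, a pluripotency factor, had risen by 2.31 after day 6 and differed by −0.05 ± 0.35 after day 7, and the epithelial 14-3-3 protein SFN by 1.42 and then −0.02 ± 0.24. For both, the mean in day7 (12.43 and 12.50) was already near that in day6+1 (12.65 and 12.38).

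Trophoblast secretory products were measured for 19 of 25 listed genes, and none passed the adjusted threshold after day 7. Of these, 11 were higher and 8 lower, with a median of 0.03, against 0.60 and 6 genes called from day6 to day6+1. Of all features, 1.25% were called from day6 to day6+1. At an unadjusted p under 0.05 after day 7, 1 of the 19 was higher and 1 lower, against 3.72% and 3.43% of all features. IFNT was 13.78, 12.32 and 12.33 on day7 and 14.57, 13.59 and 13.67 on day7+1. The first day7 array lay above 2 of the day7+1 arrays, so the groups overlapped. The difference was 1.13 ± 0.42 (limma adjusted p = 0.573), with a 95% interval from 0.26 to 2.01 before adjustment, 1.62 without the first day7 array and 0.53 with slide as a fixed block. Cattle carry several near-identical interferon tau genes, which a probe may not separate. By group the mean IFNT level was 11.74 in day6, 12.81 in day7, 13.73 in day6+1, 13.94 in day7+1, 14.06 in day8 and 15.29 in day6+2, and the levels of day6+1, day7+1 and day8 lay within the spread of their arrays.

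The pregnancy-associated glycoprotein PAG11 was 8.26, 7.43 and 6.75 on day7 and 9.25, 7.69 and 8.30 on day7+1, with overlapping groups (0.93 ± 0.51, limma adjusted p = 0.773), and its other probe differed by 0.12. Its difference was 1.68 with slide as a fixed block and 0.51 without the first day7+1 array. The prostaglandin synthase PTGS2 differed by 0.56 ± 0.41, overlapped as well, and was 0.21 with slide as a fixed block and 0.06 without the third day7 array. Of the steroid-producing enzymes, HSD3B1 was 11.26, 12.27 and 11.14 on day7 and 12.20, 11.21 and 11.28 on day7+1, a difference of 0.01 ± 0.39, and CYP11A1 differed by 0.22 ± 0.45. From day6 to day6+1 these had risen by 2.40 and 2.83. Their day7 means (11.56 and 10.56) were near those of day6+1 (11.33 and 11.03) and far above those of day6 (8.93 and 8.21). The difference between the extra days was −2.39 ± 0.55 for HSD3B1 and −2.61 ± 0.63 for CYP11A1, with adjusted p of 0.130 and 0.169, so neither passed.

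**Figure D4:**
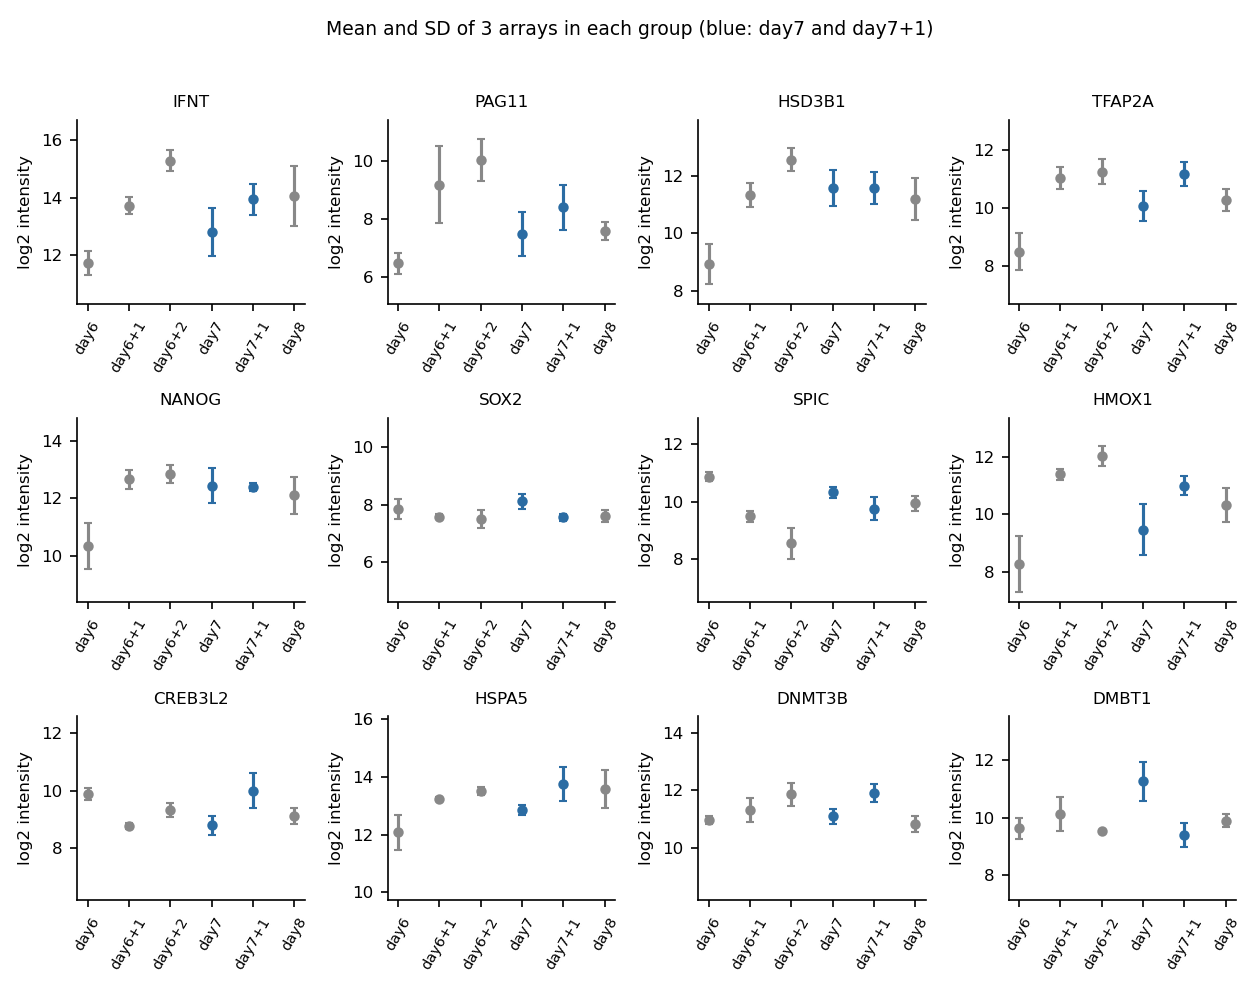
Mean log2 intensity with SD of the 3 arrays in each of the 6 groups for 12 genes, day7 and day7+1 in blue; every panel spans the same range of log2 units. IFNT, HMOX1 and TFAP2A lie higher in day7+1 than in day7, NANOG and HSD3B1 lie level, and DMBT1 is highest in day7.

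Of 26 trophectoderm genes measured, 15 were higher and 11 lower, with a median of 0.04. After day 6 the median was 0.24 and 6 genes were called, against 1.25% of all features. The transcription factor TFAP2A was 9.50, 10.56 and 10.16 on day7 and 11.45, 11.38 and 10.71 on day7+1. The groups were separated, with a difference of 1.11 ± 0.32 (limma adjusted p = 0.394), and its 2 other probes differed by 0.09 and 0.28. The trophectoderm regulators CDX2 (0.05 ± 0.21) and GATA3 (−0.14 ± 0.27) and the keratin KRT18 (−0.03 ± 0.18) overlapped between groups. HAND1, a factor of trophoblast and mesoderm, differed by −0.56 ± 0.26. The summed log2 level of the 8 defining trophectoderm markers was 88.8 to 90.5 on day7 and 89.8 to 91.0 on day7+1.

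Pluripotency and epiblast genes were lower in 14 of 22 cases, with a median of −0.07 (−0.21 after day 6). SOX2, an epiblast transcription factor, was 7.83, 8.24 and 8.32 on day7 and 7.48, 7.72 and 7.51 on day7+1. SPIC, an ETS family factor of the list, was 10.42, 10.41 and 10.11 on day7 and 9.28, 9.97 and 9.996 on day7+1. Both were separated between groups, and the differences of −0.56 ± 0.21 and −0.57 ± 0.24 had limma adjusted p of 0.569 and 0.639. That of SPIC was −0.29 with slide as a fixed block. POU5F1 (−0.08 ± 0.26) and KLF4 (0.08 ± 0.27), other members of the pluripotency network, overlapped. The summed log2 level of the 4 inner cell mass markers was 40.3 to 41.2 on day7 and 39.1 to 40.0 on day7+1. In whole embryos fewer cells of a type and less RNA per cell cannot be told apart. Of 23 hypoblast genes, 11 were higher and 12 lower. GATA4 ranged from 11.22 to 12.72 on day7 and from 10.14 to 13.06 on day7+1, a spread that covers its difference of −0.54 ± 0.55, which was −1.65 with slide as a fixed block and 0.21 without the third day7+1 array.

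Junction and fluid transport genes showed no common direction (13 of 25 higher, median 0.00). The water and glycerol channel AQP3 was 13.90, 11.05 and 12.77 on day7 and 10.31, 11.10 and 11.08 on day7+1. It belongs to the set that was high on the first day7 array, and the difference of −1.74 ± 0.57 (limma adjusted p = 0.471) was −1.08 without it, with −0.29 on its other probe. In the attachment and matrix list, 16 of 28 genes were higher. The galectin LGALS3 was 13.03 to 13.55 on day7 and 13.81 to 14.24 on day7+1 (0.74 ± 0.23, adjusted p = 0.428), but with slide as a fixed block it differed by 0.13 and its 3 other probes by −0.18 to 0.18. The urokinase PLAU, which had risen by 2.53 after day 6, overlapped between groups and differed by 0.67 ± 0.31, by 0.17 with slide as a fixed block and by 0.36 without the third day7 array. Cytoskeletal genes had a median of 0.03. Of 31 measured, 4 reached an unadjusted p under 0.05, all higher, against 3.72% of all features: the YAP target ANKRD1 (0.82 ± 0.25), the annexin ANXA1 (0.70 ± 0.24), the calcium-binding protein S100A11 (1.21 ± 0.53), which binds ANXA1, and the actin crosslinker ACTN4 (0.53 ± 0.24). With slide as a fixed block ANKRD1 differed by 0.26, ANXA1 by 0.38 without the third day7 array and S100A11 by 0.66 without the first day7+1 array.

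Genes of the endoplasmic reticulum and its stress response were higher in 24 of 32 cases, with a median of 0.16, and 7 reached an unadjusted p under 0.05, all higher, against 3.72% of all features. None passed the adjusted threshold. CREB3L2, a membrane-bound transcription factor that serves secretory capacity, was 8.42, 8.94 and 9.03 on day7 and 10.69, 9.74 and 9.55 on day7+1. The groups were separated, with a difference of 1.20 ± 0.25 (limma adjusted p = 0.116), and 0.77 with slide as a fixed block. The chaperone HSPA5 was 12.82, 13.06 and 12.72 on day7 and 14.32, 13.78 and 13.16 on day7+1 (0.88 ± 0.31, adjusted p = 0.523), and the stress factor DDIT3 differed by 0.79 ± 0.29. DNAJB9 (0.74), HERPUD1 (0.83), HSP90B1 (0.65) and PDIA3 (0.53), which act in folding and degradation of secreted proteins, completed the 7. With slide as a fixed block the median of the list was −0.11 and HSPA5 differed by 0.15, so the direction of the list depends on how slides are treated.

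Genes of the oxidative stress response and metallothioneins were higher in 34 of 43 cases, with a median of 0.17, which was 0.20 with slide as a fixed block and 0.07 with median centring. Of the 43, 5 reached an unadjusted p under 0.05, all higher, against 3.72% of all features. Arrays of the groups did not overlap for 9 higher and 4 lower members, against 5.8% and 4.82% of all features. Besides HMOX1 the higher members included GCLM, a subunit of the enzyme that limits glutathione synthesis, at 9.52, 9.19 and 8.74 on day7 and 9.99, 10.02 and 9.89 on day7+1. The difference of 0.81 ± 0.25 had a limma adjusted p of 0.407 and was 0.48 with slide as a fixed block. The quinone reductase NQO1 was not above background on any of the 3 day7 arrays and was above it on 2 of 3 day7+1 arrays, at least 1.17-fold higher when the dim group is set at the lowest level that counted as above background. The superoxide dismutase SOD1 differed by 0.62 ± 0.25 and the cystine transporter SLC7A11 by 0.39. SRXN1, a sulfiredoxin that had risen by 1.35 after day 6, overlapped between groups (0.29 ± 0.23).

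Replication genes were lower in 19 of 32 cases, with a median of −0.09, and 5 reached an unadjusted p under 0.05, all lower, against 3.43% of all features. The helicase subunit MCM3 was 11.28, 11.48 and 11.10 on day7 and 10.12, 10.69 and 10.78 on day7+1. The groups were separated, with a difference of −0.75 ± 0.22 (limma adjusted p = 0.390). The ribonucleotide reductase subunit RRM2 differed by −0.52 ± 0.22, the sliding clamp PCNA by −0.42 ± 0.19, GINS1 by −0.44 and MCM7 by −0.43. The 3 other probes of PCNA differed by −0.14 to 0.10 and those of RRM2 by −0.52 to −0.19. Mitotic genes had a median of 0.00, with 16 of 32 higher. The respiratory chain and ATP synthase genes were lower in 38 of 54 cases, with a median of −0.13, and 3 reached an unadjusted p under 0.05, where 7.15% of all features did in either direction. NDUFC2 (0.51 ± 0.17) was higher and ATP5C1 (−0.53 ± 0.21, with −0.12 and −0.09 on its other probes) and COX6B1 (−0.44 ± 0.20) lower. The medians of the replication and respiratory lists stayed below 0 with median centring, with the deposited table, with slide as a fixed block and without the first day7 array.

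**Figure D5:**
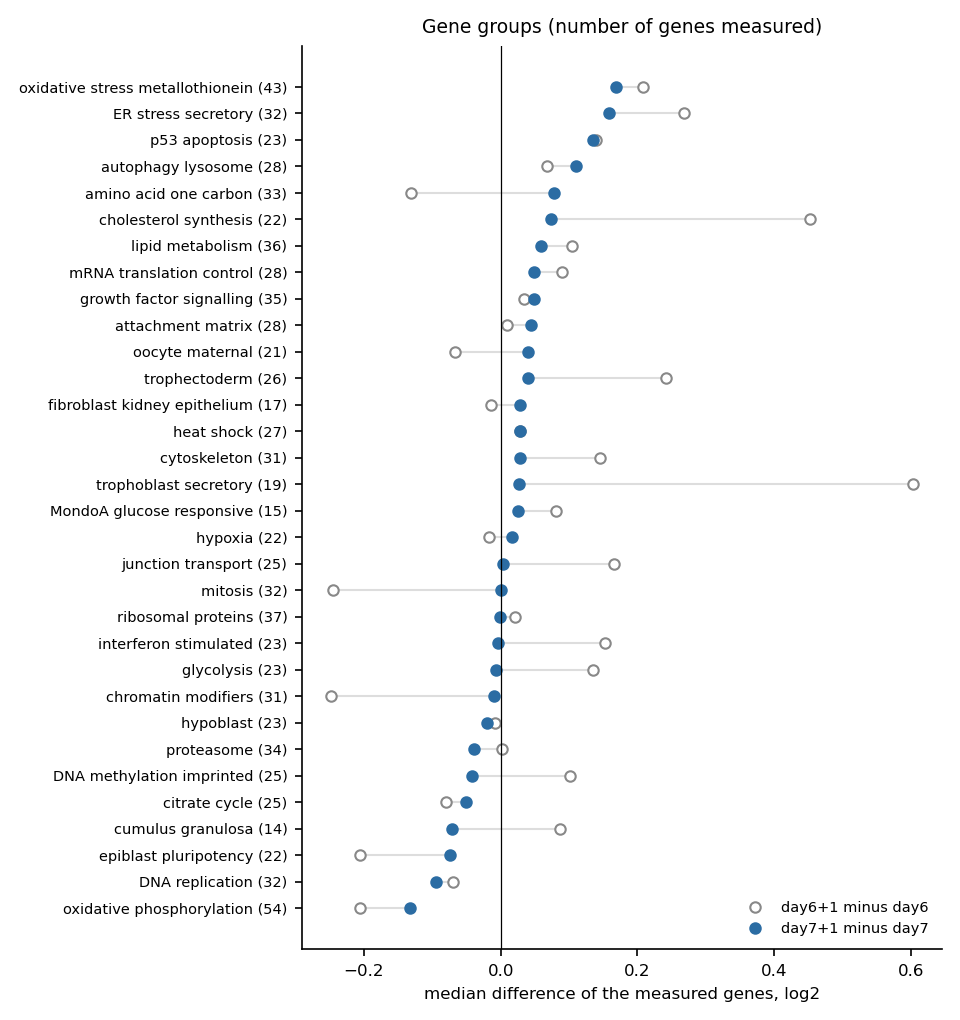
Median log2 difference of the measured genes of 32 lists, ordered by the value for day7+1 minus day7 (filled points), beside day6+1 minus day6 (open points). The filled points run from −0.13 for oxidative phosphorylation to 0.17 for oxidative stress genes, and those for trophoblast secretory and cholesterol synthesis genes lie near 0 while their open points lie at 0.60 and 0.45.

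In the list of DNA methylation and imprinted genes, 12 of 25 were higher, and 5 of them reached an unadjusted p under 0.05, against 3.72% of all features. The de novo methyltransferase DNMT3B was 10.79, 11.20 and 11.28 on day7 and 12.20, 11.94 and 11.58 on day7+1. The groups were separated, with a difference of 0.82 ± 0.24 (limma adjusted p = 0.390). The imprinted genes MEST (0.87), PEG3 (0.62) and IGF2R (0.53) and the trophoblast factor ASCL2 (0.69) were the other 4. The demethylating dioxygenase TET3 was 12.67, 10.27 and 11.43 on day7 and 9.16, 10.15 and 10.20 on day7+1, a difference of −1.62 ± 0.51 that was −1.01 without the first day7 array and −0.53 with slide as a fixed block. Chromatin modifiers had a median of −0.01 with none at an unadjusted p under 0.05.

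In metabolism, cholesterol synthesis genes had a median of 0.45 after day 6, with 5 of 22 called, against 1.25% of all features. After day 7 the median of that list was 0.07, with none at an unadjusted p under 0.05. Glycolysis (11 of 23 higher), the citrate cycle (9 of 25 higher) and lipid metabolism (20 of 36 higher) had medians of −0.01, −0.05 and 0.06. In glycolysis and in the citrate cycle, 5 genes each separated the groups in the lower direction and 1 each in the higher, against 4.82% and 5.8% of all features. In amino acid and one-carbon metabolism, the serine synthesis enzyme PSPH was 8.61 to 8.96 on day7 and 9.42 to 9.995 on day7+1 (0.83 ± 0.23, limma adjusted p = 0.370, with 0.11 on its other probe), and the cystathionine-cleaving enzyme CTH differed by 0.66 ± 0.23. The hydroxymethyltransferase SHMT1 differed by −1.37 ± 0.54, by −0.70 without the first day7 array and by −0.32 with slide as a fixed block. Among 15 glucose-responsive genes TXNIP alone reached an unadjusted p under 0.05, against 7.15% of all features.

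Of the remaining lists, autophagy and lysosome genes were higher in 21 of 28 cases with a median of 0.11. The ubiquitin-conjugation protein ATG12 differed by 0.73 ± 0.22, and the muscle ubiquitin ligase TRIM63, which differed by −2.45 after day 6 and passed there, by −1.0 ± 0.38. The arrays of TRIM63 overlapped, and it differed by −0.18 with slide as a fixed block and by −0.52 without the first day7+1 array. Genes of the p53 response and apoptosis had a median of 0.14. Of 23 measured, 2 reached an unadjusted p under 0.05, against 7.15% of all features in either direction. They were BIRC3 (0.50 ± 0.21) and PERP (0.45 ± 0.21). With slide as a fixed block these were 0.26 and 0.25, and the other probe of PERP differed by −1.45. Hypoxia genes had a median of 0.02, and 2 of 22 were higher and 1 lower at an unadjusted p under 0.05. Over all features those shares were 3.72% and 3.43%. HIF1A was higher by 0.71 ± 0.24 (0.46 without the third day7 array), with 0.35 and 0.45 on its other probes. Of 27 heat shock genes (median 0.03), 2 were higher and 1 lower at an unadjusted p under 0.05, against 3.72% and 3.43% of all features. The lower one, the co-chaperone DNAJB1, differed by −0.60 ± 0.19, and its other probes by −0.14 and 0.53. Interferon-stimulated genes had a median of 0.00, and IRF9 (0.44 ± 0.19) was the 1 of 23 at an unadjusted p under 0.05, against 7.15% of all features. Growth factor genes had a median of 0.05. Of 35 measured, 2 were higher and 3 lower at an unadjusted p under 0.05, against 3.72% and 3.43% of all features. The cytokine IL6 was among the lower at −0.77 ± 0.28, with −0.48 with slide as a fixed block and 0.10 on its other probe. Translation control genes had a median of 0.05, with CPEB4 and the antiproliferative gene BTG1 (0.57 ± 0.18). Ribosomal protein and proteasome genes had medians of 0.00 and −0.04. The lists for the oocyte, for cumulus with granulosa and for fibroblast with kidney had medians of 0.04, −0.07 and 0.03, and of these only NR5A2 (−1.11 ± 0.28, adjusted p = 0.249, with −0.24 and −0.17 on its other probes), also an early embryo factor, reached an unadjusted p under 0.05. NR5A2 had its highest mean of the 6 groups in day7, but it was chosen by p in this comparison, which favours such a mean. Summed levels of the oocyte markers were 28.5 to 28.8 on day7 and 29.1 to 30.2 on day7+1, with values near background, and their part in the results was not tested.

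Whether the change over the extra day was unlike after day 7 and after day 6 was tested as the difference of both differences. Of 34265 features, 2 (0.00584%) passed in limma, both lower after the extra day following day 6 and higher after that following day 7: CREB3L2 and the unnamed probe EMBV3_37916. CREB3L2 averaged 9.88 in day6 and 8.77 in day6+1, a fall of 1.10 on the log2 scale, and 8.80 in day7 and 9.996 in day7+1. The difference between the extra days was 2.30 ± 0.35 (adjusted p = 0.0334). EMBV3_37916 fell by 0.98 after day 6 and was 1.20 higher after day 7, a difference of 2.18 ± 0.33 with the same adjusted p. The count varied with the setting: with slide as a random block, and without the 2 arrays that stood apart, no feature passed, and without the third day7 array 70 did.

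The genes next in rank were mostly called after day 6 and had smaller or opposite differences after day 7. STAP2, a signalling adaptor, had risen by 2.58 and differed by −0.06 ± 0.36 after day 7, and the neuronal intermediate filament PRPH by 2.73 and 0.50 ± 0.29. The hexokinase-related HKDC1 (1.51 and −0.12) and TBC1D8 (1.04 and −0.50) also rose after day 6, the cadherin CDH26 fell (−1.05 and 0.41), and KLHL24 had −0.84, short of the threshold, and 0.73. DMBT1 also ranked here, with 0.50 after day 6 and −1.87 after day 7. For these 7 genes the adjusted p of the difference between the extra days was 0.0697.

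Day7+1 and day8 embryos have the same age but differ in the day on which the cavity formed and in the time since. No feature of 34265 passed between them in limma (0%), while 2785 had an unadjusted p under 0.05. With only the arrays of those groups fitted the count was 353. It was 395 without the first day7 array and the first day6+1 array, which stood apart from their own groups. The day8 arrays all carried the set of 373 features at a high level, as given above. Among the genes with the smallest p, DNMT3B averaged 11.90 in day7+1 and 10.84 in day8 (1.07 ± 0.24, adjusted p = 0.132), the selenoenzyme GPX4 differed by 0.83 ± 0.17, the mitochondrial citrate carrier SLC25A1 by 0.89 ± 0.20 and the transcription factor FEZF2 by 1.15 ± 0.24, all higher in day7+1. SHISA4 (−2.18 ± 0.41), BAI1 (−1.52 ± 0.30), ANKRD50 (−0.88 ± 0.17) and TMEM35 (−0.89 ± 0.17) were lower, with adjusted p of 0.101 to 0.106. SHISA4 and BAI1 belong to that set of 373 features. IFNT (−0.12 ± 0.42), PTGS2 (−0.01 ± 0.41) and CYP11A1 (0.03 ± 0.45) had differences smaller than their standard errors.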

How the data were processed

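Single-colour arrays of 18 bovine blastocyst samples were used, in 6 groups of 3 labelled by cavity formation day and extra days in culture. The authors deposited scanner files with the median foreground and background intensity of each spot at 532 nm, per the file headers, and a table of normalized log2 values, which the authors had deposited for the same arrays. Per the submitters' processing notes on 9 of the 18 samples, R 3.2.4 and limma 3.28.5 were used; the steps for day7 and day7+1 are not given in the sources used here. The deposited log2 columns matched the intensities in scale and direction (lowest r 0.99997 to the normalized scans, column medians 7.76 to 7.77), and their centring is not stated.

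Intensities were background-corrected with normexp (offset 50), set-aside spots were removed, and arrays were quantile normalized with limma 3.58.1 in R 4.3.3. A probe was kept if it exceeded the 95th percentile of the negative controls on at least 3 of 18 arrays (39986 kept). Gene symbols came from the platform annotation (none for 22004 probes), and the brightest probe stood for a gene. A limma fit of 6 group means over 18 arrays gave moderated p-values, adjusted by Benjamini-Hochberg over all features. No model was fitted to a gene list. The fit was tested on simulated data. Genes named were those past the threshold, the 10 smallest p-values in each direction, the 5 largest rises and falls with an unadjusted p under 0.01 and separated arrays, up to 3 members of each list with the smallest p, and fixed markers; other list members with an unadjusted p under 0.05 were named after their values were seen. The members and lists were chosen with earlier results of these data known. Alternatives covered background correction, scaling, filter, probe choice, variance model, slide and replicate blocks, and left-out arrays. No sequence is shown.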

Additional observations from a re-analysis of the deposited data

Results flagged for a closer look

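A pair of features changed differently over the extra day after a day 7 cavity than after a day 6 cavity, by a limma test of the difference itself. No feature passed that test with slide as a fixed or a random block, or without the 2 arrays that stood apart. CREB3L2 fell by 1.10 from day6 to day6+1 (adjusted p = 0.0290) and was 1.20 higher in day7+1 than in day7, a difference of 2.30 ± 0.35. All 3 day7+1 arrays lay above all 3 day7 arrays. The unnamed probe EMBV3_37916 fell by 0.98 from day6 to day6+1 (adjusted p = 0.0414) and was 14.21, 13.95 and 14.68 on day7 and 15.45, 15.62 and 15.36 on day7+1, a difference between the extra days of 2.18 ± 0.33. Both groups had 3 arrays, which is too few for a test of single outlying arrays.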

How the results depend on the processing

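Between day7+1 and day7 the count of 6 features was 1 with plain background subtraction and 75th percentile scaling, 0 with median centring, 24 with a trended and robust variance, 0 with only the arrays compared, 0 with slide as a fixed block, 18 with the replicate block and 10 without the 2 arrays that stand apart; fitted on the 5 arrays left without the first day7 array, a setting chosen after seeing the data, it was 0. Leaving out each array in turn gave 0 to 8, with 0 without the third day7 array, the first day7+1 array or the second day7+1 array. For the difference between the extra days the count of 2 was 25, 4, 15, 4 and 0 under the first 5 of these settings in the same order, 0 with slide as a random block, 51 with the replicate block, 0 without the 2 arrays, and 0 to 70 when each array was left out, the 70 without the third day7 array. Between day7+1 and day8 the count of 0 was 1 with background subtraction, 353 with only the arrays compared, 3 with the replicate block, 395 without the 2 arrays, and 0 to 1 when each array was left out. The median shift of the features called after day 6, 0.343, was 0.0279 when slide was a fixed block and that block also chose the features, and 0.231 to 0.450 when each array was left out. Deviations of same-numbered day7 and day7+1 arrays correlated at −0.04, −0.13 and −0.03, but groups of 3 arrays cannot settle whether the replicate numbers pair the samples. In every group the third replicate lay on another slide than the first and second, so replicate number partly follows slide. No difference that passed the threshold changed direction. Of 158 named differences under 17 settings each, 2623 values stayed on the same side of the threshold, 47 no longer passed and 16 newly passed. Only 6 of the 158 passed in the main fit, so the 47 losses all fall on those 6. Most of the 2623 values belong to differences short of the threshold in the main fit. Among the 2623, 23 differences short of the threshold changed sign in some setting, none of them over 1 in size. Of the list medians, 530 moved by less than the replicate spread and 14 by more. The medians of 22 lists changed sign in some setting, that of endoplasmic reticulum genes from 0.16 to −0.11 with slide as a fixed block and that of trophoblast products from 0.03 to −0.08 without the first day7 array, and 10 kept their sign in all 17. Few arrays limit the precision, slide and group are separated only through other groups, and dim probes have uncertain differences. The cause of these changes was not tested.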
